A study of Mus musculus with 4 samples.

Results

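Prostaglandins are lipid signals that most tissues make on demand, and 10 mouse genes for their synthesis, breakdown and reception were described in cells sorted from the pulp of molars and incisors. The 10 genes were taken by symbol from the authors' deposited table, which has 24216 rows, and each had exactly 1 row of its own. They are the cyclooxygenases Ptgs1 and Ptgs2, the terminal synthases Ptges, Ptges3, Ptgis and Ptgds, the inactivating enzyme Hpgd, and the receptors Ptger2, Ptger3 and Ptger4. RNA came from pulp of molars (2 libraries) and pulp of incisors (2 libraries), all from XLacZ4 mice, a reporter strain that makes beta-galactosidase in mural cells, the pericytes and smooth muscle cells around small vessels. Dissociated cells were stained with FDG, which fluoresces once beta-galactosidase has cut it, and positive cells were sorted. The labels give no age, sex or treatment, and do not state whether both libraries of a tooth type derive from different mice. Incisor libraries carry a protocol that speaks of molars, but their titles, source names and tissue entries all say incisor.

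Prostaglandin synthesis starts with arachidonic acid, which phospholipases and related lipases free from membrane lipids. The cyclooxygenases turn it into the unstable intermediate prostaglandin H2, and terminal synthases then make prostaglandin E2, prostacyclin, prostaglandin D2, prostaglandin F2 alpha or thromboxane. In dental pulp prostaglandin E2 and prostacyclin are known as agents of vessel dilation and of pain in inflamed teeth, and pericytes and smooth muscle cells are among the cells that respond to them.

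Levels are given as FPKM, fragments scaled to transcript length and to library depth, which can be set side by side between genes of different length. The authors' deposited table holds 1 FPKM value per tissue in which the libraries had already been combined, so no value below carries a replicate error and no sample values can be shown. All FPKM values, log2 ratios (molar over incisor), p and q are the authors' own, and a gene is called where their q lies under 0.05. Effects of the sort, the library preparation or the run cannot be told apart from those of tooth type in such a table, and in sorted bulk RNA fewer cells of a type cannot be told apart from less RNA per cell.

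Promoter sequences show how unlike the regulatory starts of these genes are. RefSeq (GRCm38.p6) held a promoter window, 250 bases before and 50 after the start, for 9 of the 10 genes. The gene without one was Ptgis, so its promoter was not examined. The upstream 250 bases are printed for Ptger2, Hpgd and Ptges3, 3 of the genes called between the teeth, and for Ptgs2, whose rapid induction through its promoter is well known. Capitals mark CG dinucleotides, the pairs that are dense in the CpG islands of widely used genes. In the order printed, the stretches are chr14:44987861-44988110, chr8:56294302-56294551, chr10:128058732-128058981 and chr1:150099781-150100030, all on the plus strand.
Ptger2: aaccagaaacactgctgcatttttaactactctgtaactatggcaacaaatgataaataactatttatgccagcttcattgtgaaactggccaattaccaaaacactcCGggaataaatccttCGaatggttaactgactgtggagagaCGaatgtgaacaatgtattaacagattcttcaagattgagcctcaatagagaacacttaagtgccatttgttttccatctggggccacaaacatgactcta
Hpgd: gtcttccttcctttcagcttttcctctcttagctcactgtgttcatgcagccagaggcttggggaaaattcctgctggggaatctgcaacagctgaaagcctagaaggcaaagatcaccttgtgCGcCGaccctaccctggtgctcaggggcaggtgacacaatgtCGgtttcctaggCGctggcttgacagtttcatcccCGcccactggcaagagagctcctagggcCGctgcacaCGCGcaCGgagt
Ptges3: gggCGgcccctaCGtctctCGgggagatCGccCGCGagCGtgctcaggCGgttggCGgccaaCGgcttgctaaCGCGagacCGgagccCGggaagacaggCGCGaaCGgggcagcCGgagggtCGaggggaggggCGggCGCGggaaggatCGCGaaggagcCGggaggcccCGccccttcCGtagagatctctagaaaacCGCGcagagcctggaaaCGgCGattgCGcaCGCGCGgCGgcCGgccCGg
Ptgs2: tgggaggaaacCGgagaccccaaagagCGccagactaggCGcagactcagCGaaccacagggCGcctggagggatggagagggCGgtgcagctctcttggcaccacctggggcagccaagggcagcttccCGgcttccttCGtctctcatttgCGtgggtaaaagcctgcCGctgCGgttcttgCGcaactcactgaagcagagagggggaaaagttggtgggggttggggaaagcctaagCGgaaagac

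The Ptges3 window was 73.7% G and C and held 46 CG dinucleotides, more than 98.4% of all promoter windows, whereas the Ptger2 window was 37.7% G and C with 3 of them. Hpgd (58.0%, 12 CG) and Ptgs2 (59.3%, 16 CG) lay between, against a median of 52.7% and 7 CG over the 32851 windows searched. Just past the annotated start of Ptgs2 (chr1:150100034-150100059, plus strand) lies a well-known control site, where a cAMP response element half-site, read here as its reverse complement CGTCA, overlaps the E-box CACGTG. Both are in capitals.
Ptgs2 site: gtcaccactaCGTCACGTGgagtccg

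Motifs were searched on both strands of the 9 windows as plain letter matches. The half-site TGACG was found in 2 of them, Ptgs2 and Ptges3, and in 20.8% of all windows. In Ptges3 it covers bases 12 to 16 after the start, past the printed stretch. The E-box CACGTG was found in Ptgs2 alone among the 9 (7.15% of all windows), and the full cAMP element TGACGTCA in none of the 9 (1.79% of all). In Ptgs2 the half-site covers bases 14 to 18 after the start and the E-box bases 17 to 22, so they share a pair of bases. The C/EBP core TTGCNNAA, a match for factors of the inflammatory response, was found in Ptgs2 and Ptger2 (10.8% of all). In Ptger2 it covers bases 40 to 47 after the start, past the printed stretch. TATAAA was found in Hpgd (13.6% of all), at bases 5 to 10 after the start, also past the printed stretch. The heat shock pair GAANNTTC was found in Hpgd (7.86% of all) and had no match in the Ptges3 window. A match is a run of letters and does not show binding.

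Of the 10 genes, 3 were called higher in molar, Ptgis, Ptger2 and Hpgd, and 1 was called lower in molar, Ptges3. Among all 18770 tested genes of the authors' deposited table, 11.9% were called higher in molar, 4.28% lower in molar, and 16.2% in either direction. The 10 genes are few and were picked with earlier results of these data known, so the counts are a description. Their median log2 ratio was -0.06 over the 9 genes above 0 in both tissues, beside 0.21 over the 15875 tested genes above 0 in both. Molar FPKM values summed to 815089 over the table and incisor values to 539574, a log2 ratio of 0.60. With the totals made equal, the log2 ratio was 2.88 for Ptgis, 1.64 for Ptger2, 0.75 for Hpgd and -2.73 for Ptges3. No called gene with a finite ratio had an absolute log2 ratio below 1.10, so neither shift could turn a called direction.

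**Figure D1:**
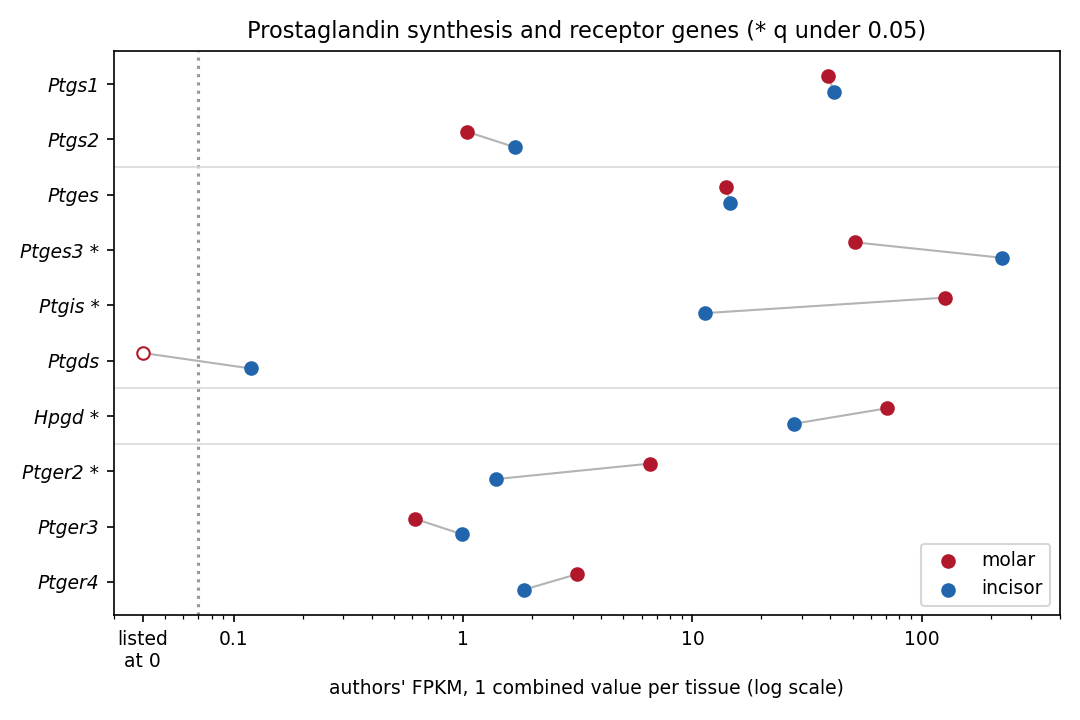
Authors' FPKM of each gene in molar (red, upper point) and incisor (blue, lower point) on a log axis, with an open point for Ptgds, listed at 0 in molar; grey lines part the cyclooxygenases, terminal synthases, Hpgd and receptors, and a star marks q under 0.05. The red point stands far to the right for Ptgis (126 in molar, 11.4 in incisor) and far to the left for Ptges3 (51.2 in molar, 224 in incisor), while the points of Ptgs1 and Ptges nearly coincide.

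The cyclooxygenases, which carry out the committed step, were not called. Ptgs1, the constitutive form found in most cells and in platelets (chromosome 2, 36230426 to 36252271, 11 exons), stood at 39.2 FPKM in molar and 41.4 in incisor in the authors' deposited table, a log2 ratio of -0.08 with q = 0.805. Ptgs2, the form induced within an hour or so by cytokines and growth factors (chromosome 1, 150100031 to 150108234, 10 exons), stood at 1.04 FPKM in molar and 1.68 in incisor, a log2 ratio of -0.70 with q = 0.377. The constitutive form was thus the more abundant in each tooth, 37.7 times the FPKM of Ptgs2 in molar and 24.6 times in incisor. Its level lay above that of 89.0% of the rows above 0 in molar and 89.9% of those above 0 in incisor, and Ptgs2 lay above 42.3% and 39.5%.

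The terminal synthases held 2 of the 4 calls, 1 in each direction. Ptgis, prostacyclin synthase (chromosome 2, 167203196 to 167240537, 10 exons), is a cytochrome P450 enzyme of endothelium, smooth muscle and fibroblasts whose product relaxes vessels and restrains platelets. It stood at 126 FPKM in molar and 11.4 in incisor in the authors' deposited table, an 11.1-fold higher level in molar (log2 3.47, q = 0.000664). That made it the most abundant of the 10 genes in molar and the fifth in incisor. Markers of endothelium moved the same way, with 9 of 10 called higher in molar. Over all tested genes, 11.9% were called higher and 4.28% lower in molar. The endothelial markers summed to 310 FPKM in molar and 21.3 in incisor, with Cldn5 listed at 0 in incisor. Markers of mural cells summed lower in molar (325 in molar and 835 in incisor, 1 of 10 called higher and 3 lower in molar), and those of fibroblasts and odontoblasts went both ways (2 of 10 higher and 3 lower). The part of any of these cells in the Ptgis difference was not tested.

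Ptges3 went the other way. Its protein, known as p23, is both a cytosolic prostaglandin E synthase and a co-chaperone of Hsp90, so its RNA level does not speak for either role alone. Ptges3 (chromosome 10, 128058982 to 128077254, 8 exons) stood at 51.2 FPKM in molar and 224 in incisor in the authors' deposited table, 4.38-fold lower in molar (log2 -2.13, q = 0.000664). Of its transcript, 23.0% of 32-base words occur in transcripts of other genes, chiefly the pseudogene Ptges3-ps, and its value is uncertain to the extent that such reads were split or dropped. Markers of dental epithelium moved the same way as Ptges3, with 8 of 9 called lower in molar beside 4.28% of all tested genes. They summed to 2634 FPKM in molar and 23494 in incisor. Sums were also lower in molar for markers of mural cells (325 in molar and 835 in incisor) and mast cells (5.25 and 95.1). Those of neutrophils (12.4 and 20.6) were lower too, and the remaining marker lists summed higher in molar. The part of any of these cells in the Ptges3 difference was not tested.

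The inducible enzyme of prostaglandin E2 synthesis did not follow either of them. Ptges, the microsomal synthase that works downstream of Ptgs2 in inflammation (chromosome 2, 30889471 to 30903297, 3 exons), stood at 14.04 FPKM in molar and 14.6 in incisor in the authors' deposited table (log2 -0.06, q = 0.856). Ptgds, the lipocalin-type prostaglandin D synthase of brain, heart and male genital tract (chromosome 2, 25466712 to 25469749, 7 exons), was listed at 0 in molar and at 0.118 FPKM in incisor (q = 0.221). A listed 0 does not show absence, because the table gives no read counts, and no fold is given. Within each tooth, Ptgis stood at 8.98 times the FPKM of Ptges in molar and at 0.779 times that of Ptges in incisor. Relative to Ptges3 it stood at 2.46 times in molar and 0.0506 times in incisor.

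Hpgd, the dehydrogenase that oxidises the 15-hydroxyl group and thereby inactivates prostaglandin E2 and its relatives, was called higher in molar. The gene (chromosome 8, 56294552 to 56321046, 7 exons) stood at 70.6 FPKM in molar and 27.7 in incisor in the authors' deposited table, 2.55-fold higher in molar (log2 1.35, p = 0.0071, q = 0.0452). Its q was the largest of the 4 calls. It lay close to the threshold, was lost at a q threshold of 0.01, and ranked 1929 by fold among the 2005 molar-higher genes above 0 in both tissues. Hpgd was the second most abundant of the 10 genes in molar and the third in incisor.

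Of the 4 receptors for prostaglandin E2, Ptger2 was called and the other 3 were not. The proteins of Ptger2 and Ptger4 (EP2 and EP4) couple to Gs and raise cAMP, whereas Ptger3 (EP3) couples mainly to Gi and lowers it. Ptger2 (chromosome 14, 44988111 to 45003820, 2 exons) stood at 6.56 FPKM in molar and 1.39 in incisor in the authors' deposited table, 4.71-fold higher in molar (log2 2.23, p = 0.00015, q = 0.00176). Ptger4 (chromosome 15, 5233399 to 5244187, 3 exons) stood at 3.13 FPKM in molar and 1.84 in incisor, with no call (log2 0.77, q = 0.326). Ptger3 (chromosome 3, 157566892 to 157644758, 3 exons) stood at 0.618 FPKM in molar and 0.992 in incisor, also not called (log2 -0.68, q = 0.521). Ptger1 (EP1), which raises calcium and belongs to the wider list of prostanoid receptors, is named here after its values were seen. It stood at 1.78 FPKM in molar and 0.183 in incisor, a 9.71-fold higher value in molar without a call (log2 3.28, q = 0.410). Whether the Ptger2 difference exceeds that of the other receptors was not tested.

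Receptor RNA was scarce beside enzyme RNA. In molar the order ran Ptger2, Ptger4, Ptger1, Ptger3, with Ptger2 at 2.10 times Ptger4 and at 10.6 times Ptger3. In incisor it ran Ptger4, Ptger2, Ptger3, Ptger1, with Ptger2 at 0.757 times Ptger4 and 1.41 times Ptger3. Both Gs-coupled receptors thus stood above the Gi-coupled one in each tooth, though with no spread over libraries the order of neighbours cannot be tested. Low molar values need care, because genes for olfactory, vomeronasal and taste receptors, which pulp is not known to use, had a 99th percentile of 3.77 FPKM in molar and 0.146 in incisor (1493 genes, a list chosen after values were seen). The molar values of Ptger4, Ptger1, Ptgs2 and Ptger3 lie within that range, and that of Ptger2 lies above it.

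Set in order of FPKM, the molar levels ran Ptgis, Hpgd, Ptges3, Ptgs1, Ptges, Ptger2, Ptger4, Ptgs2, Ptger3 and Ptgds. The incisor levels ran Ptges3, Ptgs1, Hpgd, Ptges, Ptgis, Ptger4, Ptgs2, Ptger2, Ptger3 and Ptgds. In each tooth 5 enzymes, Ptgs1, Ptges, Ptges3, Ptgis and Hpgd, exceeded every receptor, and Ptgs2 and Ptgds stood among or below the receptors. The summed FPKM of the 10 genes was 312 in molar and 326 in incisor.

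**Figure D2:**
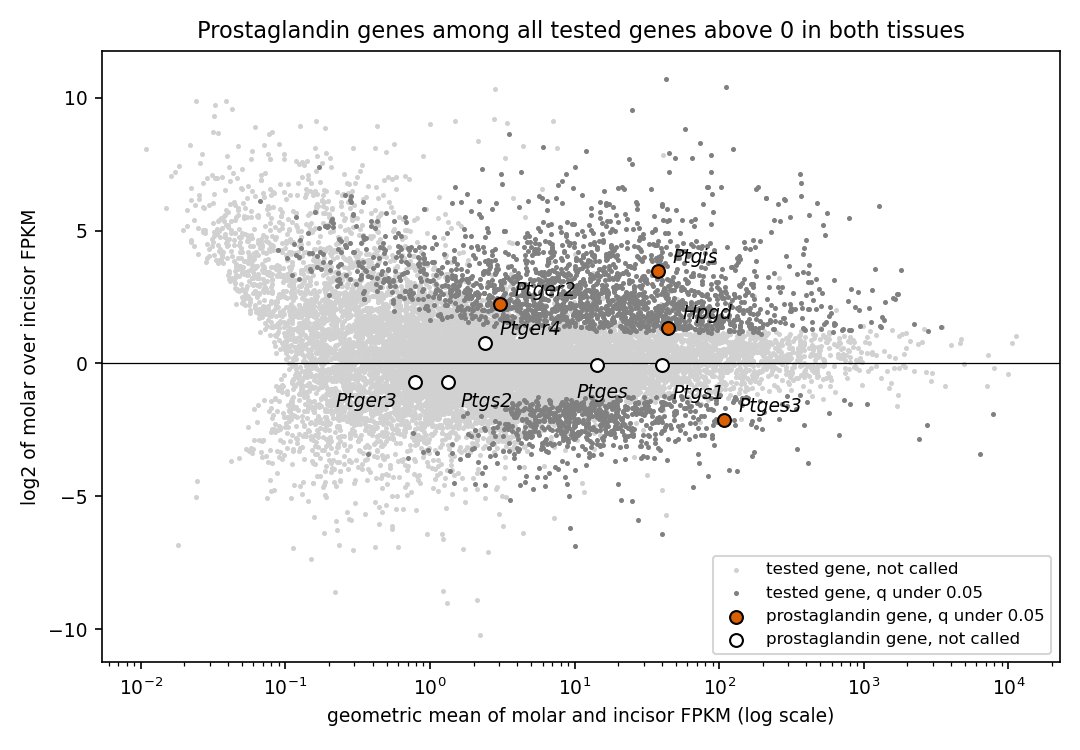
Log2 of molar over incisor FPKM (vertical) against the geometric mean of both FPKM values (horizontal, log scale) for the 15875 tested genes above 0 in both tissues, in light grey where not called and dark grey where q was under 0.05; large points are 9 of the 10 prostaglandin genes, orange where called. Ptgis, Ptger2 and Hpgd lie above zero among dark grey points, with some uncalled genes as high at the level of Ptger2, Ptges3 lies below zero, and Ptgs1 and Ptges lie on the zero line.

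By size of fold, the called prostaglandin genes fell within the range of other called genes. Ptgis ranked 552 and Ptger2 ranked 1255 by fold among the 2005 molar-higher genes above 0 in both tissues. Ptges3 ranked 353 among the 726 genes called lower in molar and above 0 in both. No other row of the table overlapped the interval of any of the 10 genes. Apart from Ptges3, at most 0.304% of their 32-base words (in Ptges) occurred in other genes.

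The rest of the eicosanoid pathway was described from 5 lists with 40 genes, of which 35 had their own tested row. Of these, 7 were called higher in molar and 1 lower in molar, against the shares of 11.9% and 4.28% over all tested genes given above. Their median log2 ratio was 0.90 over 34 genes above 0 in both tissues, beside 0.21 over all genes.

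Of 11 tested genes that supply arachidonic acid, 1 was called, higher in molar, a share of 9.09% beside 11.9% of all tested genes. Mgll, the lipase that frees arachidonic acid from the endocannabinoid 2-arachidonoylglycerol, stood at 12.0 FPKM in molar and 4.94 in incisor in the authors' deposited table (q = 0.0402). The secreted phospholipase Pla2g5 was the uncalled gene of the list with the highest mean over both teeth, at 20.6 in molar and 14.2 in incisor (q = 0.324). Pla2g4a, the cytosolic phospholipase that feeds the cyclooxygenases and that is named here after its values were seen, stood at 10.8 in molar and 20.8 in incisor (q = 0.150). Pla2g2e was not tested, and Pla2g4b shares a joined row with Jmjd7.

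Among the other prostanoid synthases 3 of 6 were called, all higher in molar, beside 11.9% of all tested genes. All 3 can make prostaglandin F2 alpha. Fam213b, the prostamide and prostaglandin F synthase, stood at 189.8 FPKM in molar and 6.23 in incisor in the authors' deposited table, 30.5-fold higher in molar. Cbr1, a carbonyl reductase that turns prostaglandin E2 into F2 alpha, stood at 82.3 in molar and 5.95 in incisor. Akr1b3, aldose reductase with prostaglandin F synthase activity, stood at 252.5 in molar and 45.7 in incisor. Each had q = 0.000664, but 63.3% of the 32-base words of Akr1b3 and 16.2% of those of Cbr1 occur in other genes, so those values are uncertain. The haematopoietic prostaglandin D synthase Hpgds, at 108 in molar and 52.2 in incisor, was not called (q = 0.0999).

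The receptor for prostaglandin F2 alpha went the other way from those synthases. Ptgfr, which couples to Gq and contracts smooth muscle, stood at 1.01 FPKM in molar and 5.71 in incisor in the authors' deposited table, 5.64-fold lower in molar (log2 -2.50, q = 0.0448). It was the single call among 4 tested prostanoid receptors outside the 10 genes, beside 4.28% of all tested genes called lower in molar. Its molar value lies within the chemoreceptor range. The prostacyclin receptor Ptgir, named here after its values were seen because Ptgis was called, stood at 0.160 in molar and 0.0681 in incisor (q = 0.550). The thromboxane receptor Tbxa2r, at 3.06 in molar and 0.146 in incisor, was not called (q = 0.252). The molar values of Ptgir and Tbxa2r also lie within the chemoreceptor range. The prostaglandin D2 receptors Ptgdr and Ptgdr2 were not tested.

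Prostaglandin carriers and reductases did not differ by a call, with 0 of 5 tested at q under 0.05, beside 16.2% of all tested genes. At an unadjusted p under 0.05 there was 1, Ptgr2, lower in molar, and log2 ratios ran from -1.19 to 0.64. Ptgr1, the reductase that acts after Hpgd, was the most abundant, at 27.7 FPKM in molar and 17.7 in incisor in the authors' deposited table (q = 0.252). On the neighbouring leukotriene branch 3 of 9 tested genes were called, all higher in molar, beside 11.9% of all tested genes. Ltc4s, which joins glutathione to leukotriene A4, stood at 154.6 in molar and 6.83 in incisor (22.6-fold, q = 0.000664). Alox5ap, the protein that presents arachidonic acid to 5-lipoxygenase, stood at 277 in molar and 123 in incisor (q = 0.0310), and Lta4h, which makes leukotriene B4, at 26.5 in molar and 7.72 in incisor (q = 0.0136). Cysltr1, a receptor for cysteinyl leukotrienes, was not called, at 6.77 in molar and 4.72 in incisor, and Ltb4r2 was not tested.

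Genes of this branch are known from macrophages and monocytes. Of 10 markers of these cells, 4 were called higher in molar, 1 lower and 5 not, beside 11.9% and 4.28% of all tested genes. The macrophage and monocyte markers summed to 8835 FPKM in molar and 5517 in incisor, where all rows summed to 815089 and 539574. Mast cell markers summed lower in molar, at 5.25 in molar and 95.1 in incisor. Of 7 tested mast cell markers, 0 were called higher in molar and 1 lower, and by value 1 was higher and 6 lower. The part of any of these cells in the differences of this branch was not tested.

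**Figure D3:**
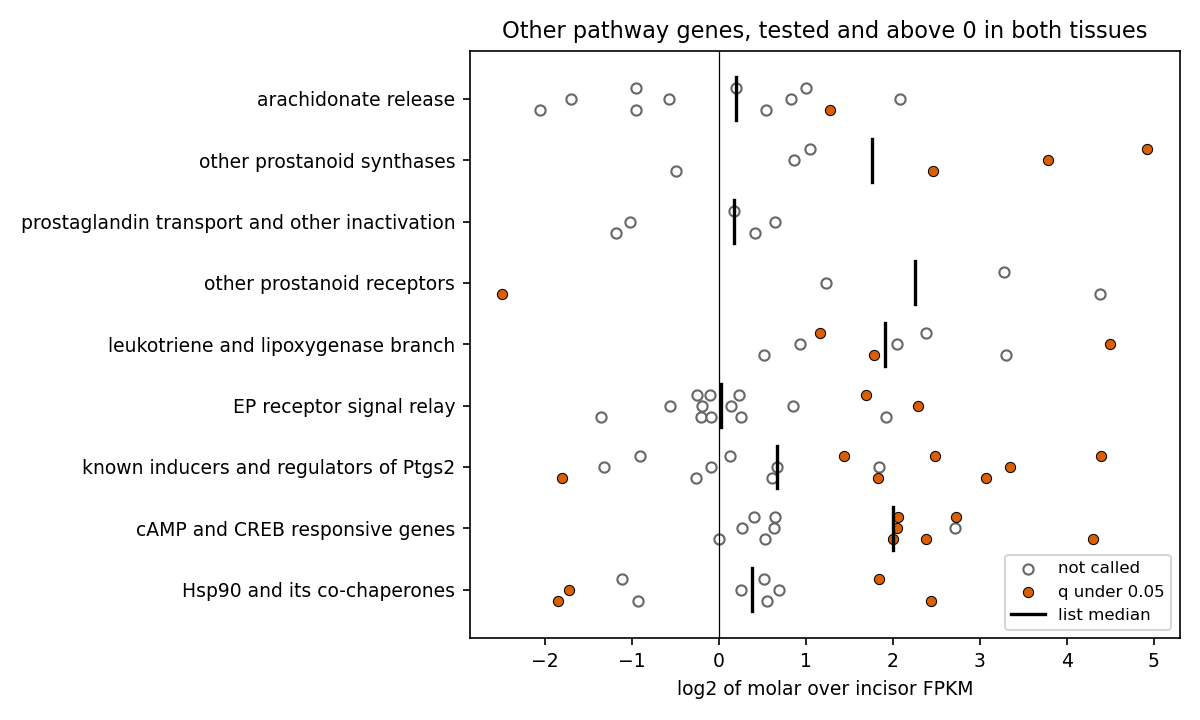
Log2 of molar over incisor FPKM for the tested genes above 0 in both tissues in 9 lists of the wider pathway, orange where q was under 0.05 and open where not called, with the list median as a black bar. Log2 ratios above 4 occur in 5 of the lists, and Ptgfr is the orange point at the far left.

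Downstream of the receptors, 2 of 14 genes of the signal relay were called, both higher in molar, a share of 14.3% beside 11.9% of all tested genes. Prkar1a, the regulatory subunit that holds protein kinase A inactive until cAMP binds, stood at 84.9 FPKM in molar and 26.3 in incisor in the authors' deposited table (q = 0.00176). Arrb2, an arrestin that ends receptor signals, stood at 56.0 in molar and 11.45 in incisor (q = 0.000664). Gnas, the Gs alpha subunit through which EP2 and EP4 act, was not called, at 399 in molar and 341 in incisor (q = 0.503).

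Of 13 tested genes that respond to cAMP and CREB, 6 were called higher in molar and 0 lower (7 and 0 at an unadjusted p under 0.05), beside 11.9% and 4.28% of all tested genes, with a median log2 ratio of 2.01. Il6 stood at 23.7 FPKM in molar and 1.20 in incisor in the authors' deposited table, the nuclear receptor gene Nr4a1 at 129 in molar and 32.1 in incisor, and Fos at 1008 in molar and 194 in incisor. Fosb (28.8 in molar and 6.92 in incisor), Dusp1 (179 in molar and 43.3 in incisor) and Nr4a3 were also called, the last at 1.10 in molar and 0.166 in incisor, within the chemoreceptor range. These genes answer cell handling and many other stimuli too, and the list does not single out prostaglandin signals. Rgs2 was the most abundant gene not called (47.4 in molar and 32.9 in incisor), and Ereg was not tested.

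Known inducers and regulators of Ptgs2 were called in 7 of 15 cases, 6 higher and 1 lower in molar, beside 16.2% of all tested genes called in either direction. Ptgs2 itself was not called. The cytokines Il1b (305 FPKM in molar and 54.3 in incisor), Tnf (229 in molar and 22.6 in incisor) and Il1a (72.4 in molar and 20.5 in incisor) were called higher in molar by the authors' deposited table, as were the receptor Tnfrsf1a (81.3 in molar and 3.87 in incisor) and the interleukin-1 antagonist Il1rn (45.04 in molar and 16.6 in incisor). Zfp36, which binds AU-rich elements and speeds decay of messages that include Ptgs2, stood at 1243 in molar and 147.5 in incisor (q = 0.000664). Khsrp, another decay factor for such messages, was lower in molar, at 3.49 in molar, within the chemoreceptor range, against 12.2 in incisor (q = 0.0378). Tsc22d3, a glucocorticoid target, was not called, at 100.1 in molar and 106.6 in incisor.

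Hsp90 and the co-chaperones that work beside Ptges3 were called in both directions, 2 of 10 higher in molar and 2 lower in molar, beside 11.9% and 4.28% of all tested genes. Stip1 stood at 48.0 FPKM in molar and 159.5 in incisor (q = 0.0280) and Chordc1 at 6.73 in molar and 24.3 in incisor (q = 0.0170) in the authors' deposited table, the same direction as Ptges3. Ahsa1, which speeds the ATPase of Hsp90, stood at 196 in molar and 36.2 in incisor (q = 0.000664), and Sugt1 at 79.2 in molar and 22.2 in incisor (q = 0.00278). Hsp90ab1 was the most abundant uncalled gene, at 1076 in molar and 2055 in incisor (q = 0.184). Of the 32-base words of Ahsa1, 17.7% occur in other genes, as do 15.2% of those of Hsp90ab1 and 8.23% of those of Stip1.

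The sorted fractions held RNA of several cell types, which bears on every level given here. Of 10 markers of mural cells, which the reporter is meant to label, 1 was called higher in molar and 3 lower, with a summed FPKM of 325 in molar and 835 in incisor. Each count of calls in this paragraph stands beside 11.9% of all tested genes called higher in molar and 4.28% called lower. Pulp fibroblast and odontoblast markers summed to 4448 in molar and 2733 in incisor, mostly from Lum (2778.5 and 1551) and Dcn (1047 and 367). Of the 10, 2 were called higher and 3 lower in molar. By value 4 were higher and 6 lower, with a median log2 ratio of -0.75. The lowest ratio was that of Dspp, at 0.921 in molar and 108.9 in incisor (q = 0.00375). Mast cell markers summed to 5.25 in molar and 95.1 in incisor (0 higher and 1 lower in molar of 7 tested), with Cpa3 and Fcer1a listed at 0 in molar and Fcer1a listed at 0 in incisor too. Platelet markers summed to 4262 in molar and 694 in incisor (1 called higher of 5), nearly all of it Pf4, which macrophages also express, and Itga2b and Gp9 stayed below 1 FPKM in both teeth. Neutrophil markers summed to 12.4 in molar and 20.6 in incisor, with Camp called lower and listed at 0 in molar and the other 6 tested not called. Glial markers summed to 64.3 in molar and 53.3 in incisor, with 2 of 6 called higher in molar. The part of each cell type in the levels of the 10 genes was not tested.

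**Figure D4:**
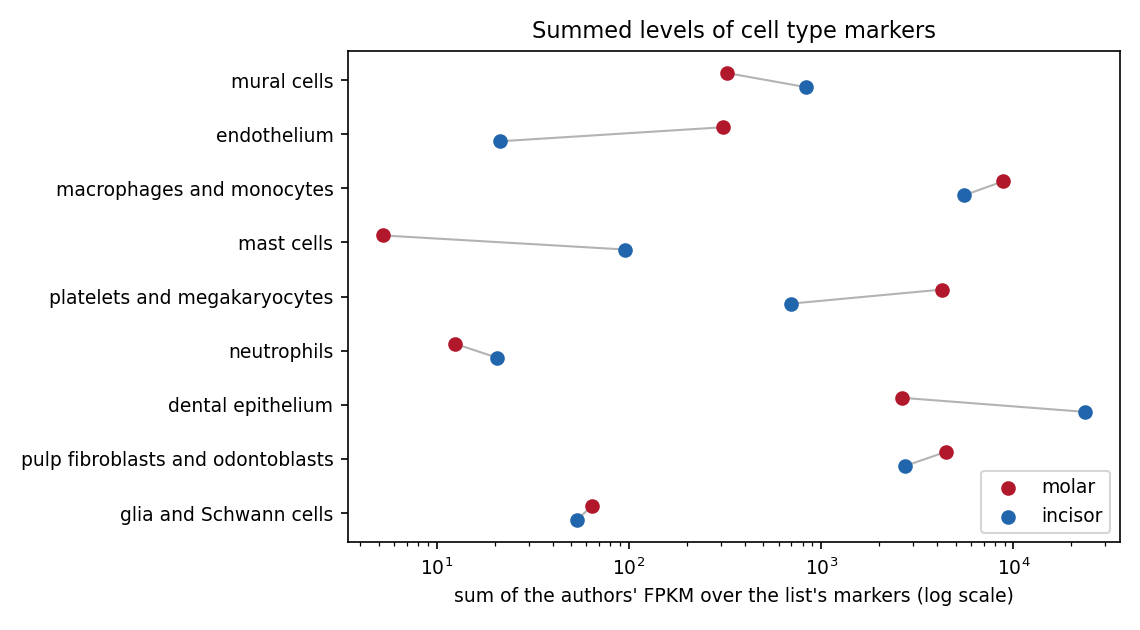
Sum of the authors' FPKM over each list of cell type markers in molar (red, upper point) and incisor (blue, lower point), on a log axis. Endothelial markers stand far higher in molar (310 in molar, 21.3 in incisor), and dental epithelial markers far lower in molar (2634 in molar, 23494 in incisor).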

How the data were processed

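RNA of sorted molar and incisor pulp cells was sequenced, 2 libraries per tissue. Per the submitters' processing notes, mm10 was the build and HISAT2, edgeR and Trim Galore were used. Which program wrote the table, and with what scaling and annotation, is not given in the sources used here. Per the file headers, the authors deposited FPKM values, 1 per tissue over its libraries, with p-values, q-values, log2 ratios and a signed test score. Each condition name was matched to a tissue through the libraries' description label. The deposited q equals a Benjamini-Hochberg adjustment of the deposited p over the 18770 tested rows, and the smallest p, 5e-05, was shared by 1414 rows. How that test used the variation among libraries is not stated, and that variation may be technical. Depth cannot be read from FPKM, so no interval is given.

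Calls, medians and ratios were computed with Python 3.11.15 and pandas 2.3.3, and the counting was tested on simulated data. No filter on low values was used. Starts were moved by 1 base to 1-based mm10 coordinates. Exon counts and shared 32-base words used GENCODE M21, the longest transcript with a RefSeq mRNA, and promoters came from RefSeq GRCm38.p6. From each pathway list every called gene was named, with the most abundant uncalled gene and those not tested. The 10 genes, the lists and the motifs were chosen with earlier results of these data known. Alternatives were a q threshold of 0.01, the authors' own mark, an FPKM minimum of 1, pseudocounts of 1 and 0.1, median centring and equal totals.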

Additional observations from a re-analysis of the deposited data

How the results depend on the processing

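The count of 4 called genes among the 10 was the same with the authors' own mark of significance, which reached q = 0.0600, and with an FPKM minimum of 1, and was 3 at a q threshold of 0.01, where Hpgd was lost. For the wider lists the 27 calls became 17 at that threshold, and the 4 called lower in molar (Ptgfr, Khsrp, Stip1 and Chordc1) became 0. The shares of all tested genes called under these other settings were not counted. Whether the losses exceed those over the whole set of tested genes is therefore not known. A common pseudocount cannot turn a ratio, and neither scaling shift (0.21 and 0.60) exceeds the smallest positive ratio of the 10 genes (0.77, Ptger4), so those settings bear on the size of the ratios only, with Ptger2 at 1.66 with a pseudocount of 1. Calls could not be recomputed under them. No paired analysis was possible because the table gives 1 value per tissue, and for the same reason no library could be left out.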
